A study of Mus musculus with 4 samples.

Results

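Potassium channel genes are described here as they were read by single-nucleus RNA-seq in the cerebral cortex of mice with a neuron-directed knockout of Gclc, aged 3 or 6 months. The members were all genes of the count matrices whose symbol begins with Kcn, apart from 3 antisense or overlapping transcripts whose symbols end in os or ot1 (Kcnd3os, Kcnab3os and Kcnq1ot1). This gave 96 of 32285 genes. They are 94 genes of channels and channel subunits in 21 groups by symbol stem, and 2 antisense RNAs, Kcnmb4os1 and Kcnmb4os2, whose symbols end in a digit. Every member had at least 1 UMI (unique molecular identifier, counted as 1 RNA molecule), while 19 members had fewer than 100 UMIs in all libraries together and 4 had fewer than 10. The members held 4529715 of 250925711 UMIs, or 1.81%, and 37.4% of those belonged to Kcnip4 alone.

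All 4 mice were GCLC-KO (Gclc-KO in the labels): the gene of the catalytic subunit that makes glutathione was floxed and deleted by a Cre driven by CaMKII, which acts in neurons. The younger pair, 3M-1 and 3M-2, was taken at 3 months and the older pair, 6M-1 and 6M-2, at 6 months, each mouse untreated and each giving 1 library of DAPI-sorted singlet nuclei. No wild-type library was used here, so no value below compares a knockout with a normal cortex, and the age of the mice cannot be told apart from the progress of their disease. Gclc was read in excitatory neurons at 42.6, 33.8, 34.1 and 36.9 CPM (UMIs per 1000000 UMIs of the same cell class and library, here and below always in the order 3M-1, 3M-2, 6M-1, 6M-2). With no wild-type library, these values do not measure the deletion. Whether the deletion was equal in excitatory and inhibitory neurons, which are compared below, was not tested.

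Potassium channels let potassium leave the cell, or enter it in the inward rectifiers, and thereby set the resting potential and end the action potential. Voltage-gated channels (Kcna, Kcnb, Kcnc, Kcnd, Kcnh, Kcnq) open on depolarization, with Kcnf, Kcng, Kcns and Kcnv as silent subunits that modify them and Kcnab and Kcnip as cytoplasmic partners. Calcium-activated channels (Kcnma1, Kcnn), sodium-activated channels (Kcnt), inward rectifiers (Kcnj) and tandem-pore leak channels (Kcnk) make up most of the rest. In microglia, leak through tandem-pore channels holds the membrane potential and bears on surveillance of the tissue and release of interleukin-1β, and inward rectifiers are known from activated microglia in culture. In neurons, Kcnc channels allow fast spiking, Kcnd channels with Kcnip partners carry the A-type current of dendrites, and Kcnq channels carry the M current.

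After the filter of the study (at most 7000 detected genes and 1% mitochondrial UMIs) 30515 nuclei remained, with 59262228 to 65894316 UMIs per library. Nuclei were assigned to cell classes by fixed marker genes, none of which is a potassium channel gene: 14413 excitatory neurons, 3092 inhibitory neurons, 4094 oligodendrocytes, 1898 microglia, 686 oligodendrocyte precursors (OPCs), 168 astrocytes and 78 vascular nuclei. Another 1978 nuclei carried markers of several classes and 4108 passed no gate, and both were left out. As a description of the gate, and no test of it, the 17 microglial markers that chose the microglia summed to 15612 to 18566 CPM in them and to 95.7 to 212 CPM in excitatory neurons. Between 12 and 19 cell barcodes were shared by a pair of libraries. Genes known from neurons were also read in the glial classes. The sum of 8 neuronal genes that took no part in the gates was 6620 ± 349 CPM (SD, n = 4) in excitatory neurons and 694 ± 107 CPM in microglia, 596 ± 113 in oligodendrocytes and 786 ± 107 in OPCs, and its part in the levels of neuronal channel genes read in glia was not tested. Library 3M-2 held the most nuclei and the lowest median depth (5994 UMIs per nucleus, against 7035 to 8140 in the others).

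Of the 6 classes compared below, the summed level of the family was highest in neurons and lowest in microglia. It was 20143 ± 435 CPM (SD, n = 4) in excitatory neurons, 15930 ± 191 CPM in inhibitory neurons and 9762 ± 765 CPM in OPCs. It was 4214 ± 242 CPM in astrocytes, 4055 ± 675 CPM in oligodendrocytes and 2653 ± 358 CPM in microglia. Astrocytes and oligodendrocytes did not differ beyond their spread. Without Kcnip4 the sum was 12147 ± 526 CPM in excitatory neurons, 11616 ± 244 CPM in inhibitory neurons and 9237 ± 643 CPM in OPCs. The gap between the neuron classes was thus mostly that of Kcnip4. Among the 76 members with at least 100 UMIs in the classes, the highest mean level was in excitatory neurons for 28, in inhibitory neurons for 18, in OPCs for 11, in microglia for 7, in oligodendrocytes for 6 and in astrocytes for 6. In 3 of those 7 microglial members every library of microglia lay above every library of the other classes, as it did for 19 of the 28 excitatory ones.

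**Figure D1:**
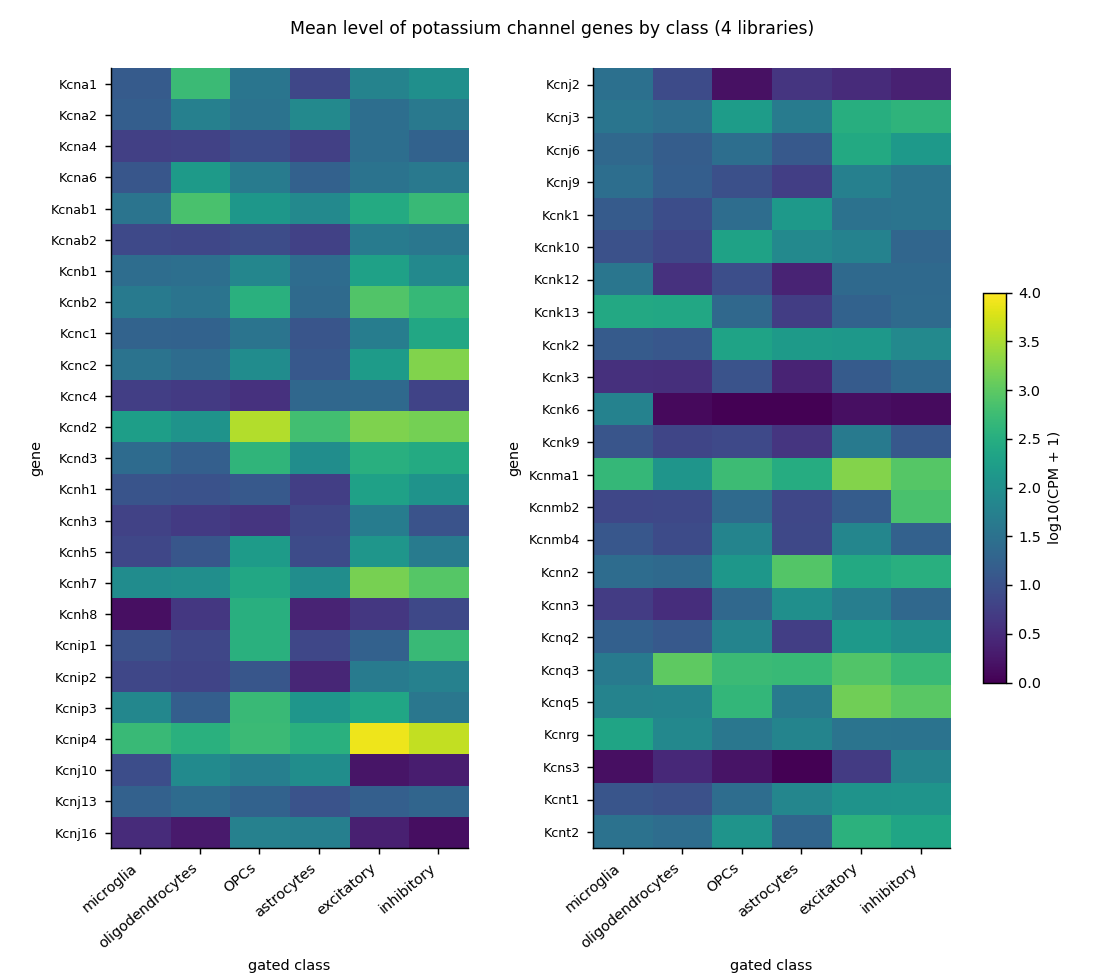
Mean level over 4 libraries, in 6 gated classes, of 49 members whose mean reached 20 CPM in at least 1 class, as log10(CPM + 1) on the colour scale, with members ordered by symbol. Kcnip4 was brightest in excitatory neurons (7995 CPM), Kcnk6 was bright in microglia alone (57.9 CPM), and Kcnk13 was bright in microglia and oligodendrocytes (257 and 250 CPM).

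In microglia, 7 members were higher than in the sum of all other gated nuclei, and 64 were lower, of 78 tested. This was tested on UMIs summed per mouse with the mouse as a block (the quasi-likelihood test of edgeR, p adjusted by Benjamini-Hochberg over all genes that entered, called at an adjusted p under 0.05, as in all tests below). Of all 18671 genes tested, 27.6% were higher and 40.7% lower in microglia. The median log2 difference was −2.74 over the members and −0.30 over all genes. Most UMIs of the other nuclei came from neurons, so that a lower value here is mainly one below neurons. Excitatory neurons gave 39401893 to 44203330 UMIs per library, and oligodendrocytes 1447823 to 3057761. The other 7 members tested were not called, and 18 had too few UMIs to be tested. In microglia 18 members had 0 UMIs, among them Kcne1, Kcnk18 and Kcnv2, which were tested and called lower through their UMIs in other nuclei, so that their fitted values are no bound.

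Of the 7 higher members, 3 encode tandem-pore channels, 1 an inward rectifier, 1 a calcium-activated channel, 1 a voltage-gated channel and 1 a regulator. Kcnk13, a leak channel known from microglia, was read at 245, 252, 265 and 264 CPM in microglia and at 19.8, 21.9, 12.2 and 14.3 CPM in excitatory neurons. The 4 libraries of microglia lay close together and did not overlap with those of neurons, and the log2 difference from all other nuclei was 2.56 ± 0.10 (SE, adjusted p = 2.5e-17). A UMI of Kcnk13 was found in 143 of 428, 95 of 343, 207 of 635 and 167 of 492 microglia. Kcnk6, another tandem-pore channel, was read at 63.6, 29.6, 74.9 and 63.3 CPM in microglia, with 3M-2 the lowest. In all other classes shown it was near 0, with 0.475 ± 0.313 CPM in excitatory neurons, and the log2 difference was 6.50 ± 0.30 (adjusted p = 4.7e-16). Kcnj2, which encodes the inward rectifier Kir2.1, was read at 25.04, 36.99, 24.95 and 28.69 CPM in microglia and at 1.95, 2.58, 2.39 and 1.29 CPM in excitatory neurons. The log2 difference was 3.13 ± 0.26 (adjusted p = 8.7e-11).

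The remaining higher members rest on few UMIs or carry a limit. Kcnn4, the calcium-activated channel of immune cells, had 18 UMIs in all microglia (7.30, 3.70, 2.58 and 5.94 CPM) and a log2 difference of 4.31 ± 0.64 (adjusted p = 1.8e-06). Kcnn4 passed the filter on low counts only through its level in microglia. Kcnk7, a tandem-pore family member that forms no current on its own, had 20 UMIs (6.26, 7.40, 6.88 and 1.98 CPM), and the log2 difference was 2.29 ± 0.50 (adjusted p = 0.00027). Kcnd1, a channel of the A-type current, had 47 UMIs, at 18.8, 22.2, 9.46 and 5.94 CPM, and a log2 difference of 1.52 ± 0.34 (adjusted p = 0.00036). Kcnrg, named as a regulator of potassium channels, was read at 172, 290, 182 and 230 CPM in microglia and at 33.8 ± 5.34 CPM (SD, n = 4) in excitatory neurons, with a log2 difference of 1.99 ± 0.11 (adjusted p = 2.0e-14). Kcnrg lies at chr14:61607457-61612826 on the plus strand, opposite to a part of Dleu2, and whether the counting kept the strands apart is not given in the sources used here.

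**Figure D2:**
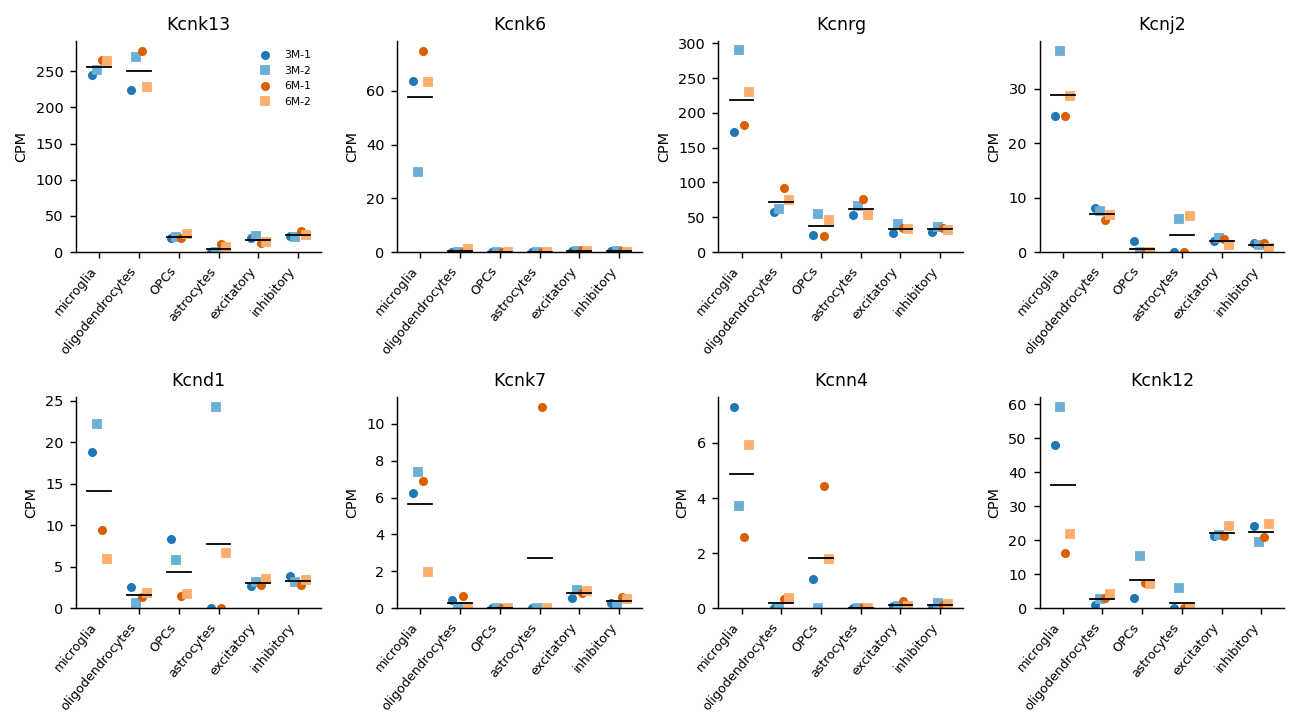
Level in CPM of 8 members in 6 gated classes, with 1 point per library, bars at the mean of 4 libraries, and linear axes from 0 that differ between panels. Microglia lay above all other classes for Kcnk6, Kcnrg and Kcnj2, and the single high astrocyte points of Kcnd1 and Kcnk7 rest on few UMIs.

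A list of 12 members known from microglia, chosen with earlier results of these data known, was described as a whole. Of these, 10 were tested against all other nuclei: 5 were higher (Kcnk6, Kcnn4, Kcnj2, Kcnk13 and Kcnd1), 3 lower and 2 not called, with a median log2 difference of 0.79. The 3 lower ones were Kcnma1 (log2 difference −2.38 ± 0.11), Kcnk2 (−3.81 ± 0.16) and Kcnq3 (−4.73 ± 0.15). Kcnk12, the closest relative of Kcnk13, had a log2 difference of 0.07 ± 0.22 (adjusted p = 0.80). Kcna3, the voltage-gated channel Kv1.3 that is widely studied in reactive microglia, had 3 UMIs in all 1898 microglia. Kcna5 (Kv1.5) and Kcnj5 had 0 UMIs, which allows up to 5.55 CPM in 3M-2 and 2.58 to 3.13 CPM in the other libraries, at a floor of 3 UMIs per library. Of 18 genes of channel partners that are no members, such as Dpp6, Dpp10 and Cntnap2, 16 were tested, 0 were higher and 14 were lower in microglia, with a median of −3.24.

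The levels of the members in microglia were set beside those of genes known from neurons. In microglia the 8 neuronal genes outside the gates stood at 6.86% to 50.2% of their own level in excitatory neurons (median 11.8%). Of 65 members with enough UMIs in excitatory neurons, 47 stood within this range in microglia, 7 below it and 11 above it. Those above included Kcnk13, Kcnrg, Kcnd1 and Kcnk12, at 1503%, 647%, 466% and 165% of their excitatory level. Kcnma1 in microglia stood at 25.4% and Kcnip4 at 6.51%. Whether neuronal RNA contributed to these values was not tested.

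Because oligodendrocytes are nuclei of similar depth (median 2125 UMIs, against 1812.5 in microglia) and carry a similar sum of neuronal genes, microglia were also compared with them, a comparison chosen after the data were seen. Of 38 members tested, 6 were higher and 12 lower in microglia, where 31.7% and 29.6% of all 11508 genes tested were. The median log2 difference was −0.096 over these members and −0.006 over all genes. Kcnk6 (6.96 ± 0.41), Kcnj2 (1.62 ± 0.24) and Kcnrg (1.17 ± 0.14) were higher again on the log2 scale. The other higher members were Kcnk12 (3.12 ± 0.36), Kcnip3 (1.82 ± 0.19) and Kcnma1 (1.57 ± 0.11). Kcnma1, the large-conductance BK channel, was read at 440, 435, 481 and 511 CPM in microglia and at 89.4, 117, 138 and 140 CPM in oligodendrocytes, without overlap. Kcnip3, a calcium-binding partner of Kcnd channels also known as DREAM, was read at 75.1, 66.6, 61.1 and 80.1 CPM in microglia and at 13.1, 6.91, 17.3 and 21.3 CPM in oligodendrocytes.

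Kcnk13 was read at 224, 270, 278 and 229 CPM in oligodendrocytes, which overlapped with microglia. Before scaling, its mean was 257 CPM in microglia and 250 CPM in oligodendrocytes. After TMM scaling its log2 difference was −0.34 ± 0.11 (adjusted p = 0.0087), and DESeq2 did not call it (adjusted p = 0.088). The largest differences in favour of oligodendrocytes were in Kcna1 (−5.65 ± 0.17), Kcnq3 (−4.89 ± 0.15), Kcnab1 (−4.75 ± 0.16), Kcna6 (−4.22 ± 0.18) and Kcnj10 (−3.80 ± 0.22). Kcna1, Kcna6 and Kcnab1 belong to the Kv1 channels and their beta subunit, and Kcnj10 encodes Kir4.1, which takes up potassium in glia.

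Promoter sequences are shown for 3 of the members that were higher in microglia, as places where the myeloid factor PU.1, which binds a core of GAGGAA, could be looked for. Each is the 250 bases before the gene's start in RefSeq (GRCm38.p6), 5′ to 3′ on the strand of the gene, and capitals mark GAGGAA or its reverse complement TTCCTC. They lie at chr11:111065914-111066163 for Kcnj2, chr12:99964249-99964498 for Kcnk13 and chr7:24370013-24370262 for Kcnn4, all on the plus strand. The genes themselves were found in GENCODE M21 (GRCm38) at chr11:111066164-111076821, chr12:99964499-100062682 and chr7:24370263-24386690.
Kcnj2: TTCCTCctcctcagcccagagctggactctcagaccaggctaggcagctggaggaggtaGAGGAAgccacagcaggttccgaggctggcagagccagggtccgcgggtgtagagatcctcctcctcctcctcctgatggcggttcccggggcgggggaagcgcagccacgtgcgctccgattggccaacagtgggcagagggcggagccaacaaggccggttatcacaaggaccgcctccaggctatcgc
Kcnk13: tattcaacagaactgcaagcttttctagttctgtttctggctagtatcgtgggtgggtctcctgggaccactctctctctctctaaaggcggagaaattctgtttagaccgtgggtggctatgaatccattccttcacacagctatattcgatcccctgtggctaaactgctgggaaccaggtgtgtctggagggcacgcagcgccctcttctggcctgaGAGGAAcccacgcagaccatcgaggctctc
Kcnn4: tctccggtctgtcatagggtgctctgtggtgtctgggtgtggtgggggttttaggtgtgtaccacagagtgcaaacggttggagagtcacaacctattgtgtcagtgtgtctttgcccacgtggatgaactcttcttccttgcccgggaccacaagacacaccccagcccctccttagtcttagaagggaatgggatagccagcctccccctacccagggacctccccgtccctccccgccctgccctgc
The window of Kcnj2 held the 6 bases 1 time on each strand, that of Kcnk13 held them 1 time on the plus strand, and that of Kcnn4 held none. Of the other higher members, Kcnk6 and Kcnd1 had no window in the promoter set. Among windows not shown, that of Kcnk7 held the 6 bases 1 time on the minus strand and that of Kcnrg held none. These 6 bases were found on either strand in 23.3% of all 32851 promoter windows of this length and in 24.2% of the 95 windows of members, which covered 70 of the 96. No binding was measured here.

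Within microglia, 441 nuclei carried markers of disease-associated microglia (DAM) above a fixed level, in numbers of 98, 60, 169 and 114, and 1457 did not. The summed level of the 15 DAM markers found in the matrices was 4842 ± 256 CPM in the former and 596 ± 152 CPM in the latter. The level has no gap: 96 of the DAM-marker-positive nuclei and 146 of the others lay within 15 to 25 marker UMIs per 10000, around the limit of 20. Of 18 members tested between them, with the mouse as a block, 2 were higher and 3 lower in DAM-marker-positive nuclei, where 6.25% and 5.67% of all 7020 genes tested were.

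Kcnj2 showed the largest difference among the members tested. It passed the filter on low counts only through its level in DAM-marker-positive nuclei, so that its place among the members tested depended on that level. In DAM-marker-positive nuclei Kcnj2 was read at 53.6, 110, 51.3 and 69.7 CPM, and in the other microglia at 15.4, 16.6, 14.4 and 15.6 CPM. The difference had 1 direction in all 4 mice and the groups did not overlap, with a log2 difference of 2.05 ± 0.32 (adjusted p = 1.4e-05), although it rests on 60 and 42 UMIs. The UMIs came from 10 of 98, 11 of 60, 17 of 169 and 13 of 114 DAM-marker-positive nuclei. Kcnma1 was read at 726, 726, 561 and 557 CPM in DAM-marker-positive nuclei and at 343, 353, 449 and 497 CPM in the others. The groups did not overlap, but they lay closer at 6 months than at 3 months. The log2 difference was 0.59 ± 0.12 (adjusted p = 0.00083). Both calls held in every alternative tried.

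Kcnrg was lower, at 90.8, 160, 136 and 148 CPM in DAM-marker-positive nuclei and 200, 327, 201 and 256 CPM in the others, with a log2 difference of −0.86 ± 0.15 (adjusted p = 7.7e-05). Kcnk12 was read with 12 UMIs in DAM-marker-positive nuclei (12.4, 33.8, 15.1 and 0 CPM) and 107 in the others (60.04, 66.3, 16.9 and 28.7 CPM). The 0 in 6M-2 allows up to 12.3 CPM at a floor of 3 UMIs. The log2 difference was −1.54 ± 0.44 (adjusted p = 0.017), and the call was lost without 3M-1 (adjusted p = 0.23), without 6M-2 (0.087) and without the mouse as a block (0.13), while DESeq2 gave it no adjusted p. Kcnip4 was lower by 0.38 ± 0.11 on the log2 scale (adjusted p = 0.020, from 0.00096 to 0.34 over the alternatives, and not called without 3M-1, without 3M-2, without 6M-1, without the mouse as a block or by DESeq2), while the sum of the neuronal genes outside the gates was 618 ± 109 CPM in DAM-marker-positive nuclei and 720 ± 106 CPM in the others. Kcnk13 (log2 difference 0.22 ± 0.13, adjusted p = 0.35) and Kcnk6 (−0.51 ± 0.24, adjusted p = 0.21) were not called. Kcnn4 had 9 UMIs in each group, from 441 DAM-marker-positive nuclei and 1457 others, so that equal UMIs are not equal levels. Kcnn4 was not tested.

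**Figure D3:**
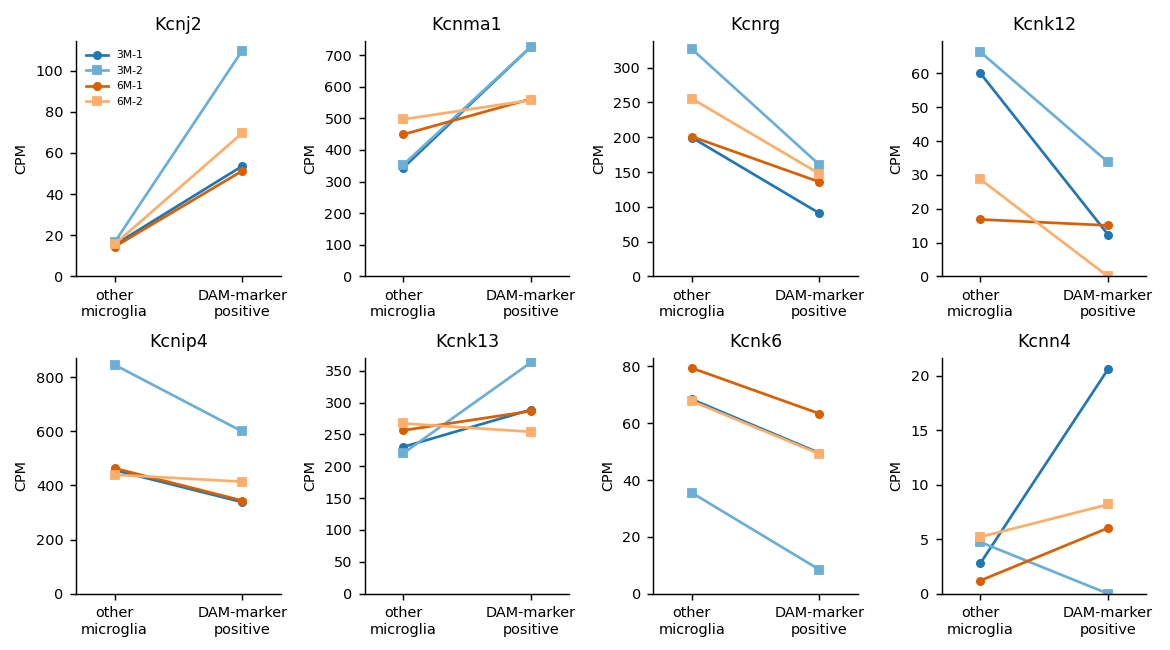
Level in CPM of 8 members in DAM-marker-positive nuclei and in the other microglia, with 1 line per mouse and linear axes from 0 that differ between panels. Kcnj2 and Kcnma1 were higher and Kcnrg lower in DAM-marker-positive nuclei of all 4 mice, whereas the lines of Kcnk13 and Kcnn4 crossed.

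Between 3 and 6 months, 0 of 37 members tested were called in microglia, and 0.25% of all 10787 genes tested were. With 2 mice at each age, this does not show that the members were unchanged. At an unadjusted p under 0.05 there were 6 members (16.2%) and 981 genes (9.09%), and DESeq2 called 0 members. The summed level of the family in microglia was 2318 and 3144 CPM at 3 months and 2481 and 2669 CPM at 6 months, which overlapped (exact permutation test, 2-sided p = 1.0, where 2 mice against 2 cannot go below 0.333). Kcnk12 had the smallest p of the members. It was read at 48.0 and 59.2 CPM at 3 months and at 16.3 and 21.8 CPM at 6 months, and the ages did not overlap. The log2 difference of 6 minus 3 months was −1.49 ± 0.33 (adjusted p = 0.088). It was −1.55 between the replicates numbered 1 and −1.44 between those numbered 2 (batch 1 and batch 2 here and below). Its adjusted p ranged from 0.0051 to 0.73 over the alternatives. Kcnk13 was level over the ages, with a log2 difference of 0.07 ± 0.16 (adjusted p = 0.97).

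Excitatory and inhibitory neurons differed in 54 of the 76 members tested, with 40 higher in excitatory and 14 higher in inhibitory neurons, where 25.4% and 26.4% of all 18112 genes tested were. The inhibitory class included striatal-type spiny nuclei by marker, at 38, 46, 39 and 1 nuclei in the order of libraries. With only the 4 interneuron types described below, a choice made after seeing the data, 49 calls held, 4 were lost and 1 reversed. The members higher in excitatory neurons were of many kinds. Kcng1 and Kcnv1, silent subunits, had log2 differences of 3.60 ± 0.16 and 2.97 ± 0.12, the tandem-pore channel Kcnk4 (TRAAK) 2.82 ± 0.14, Kcnip3 2.76 ± 0.11, and Kcnh3 2.45 ± 0.11. Kcnip3 was read at 253, 233, 188 and 239 CPM in excitatory and at 47.5, 40.6, 36.7 and 26.6 CPM in inhibitory neurons. Kcnmb4, the neuronal beta subunit of the BK channel, was higher by 2.24 ± 0.09 on the log2 scale. Kcnip4, the member with the most UMIs, was read at 8821, 8358, 7426 and 7376 CPM in excitatory and at 4544, 4381, 4473 and 3860 CPM in inhibitory neurons (log2 difference 1.06 ± 0.05). Of a list of 26 members known from excitatory neurons, 22 were higher, 0 lower and 4 not called. The list was chosen with earlier results of these data known, so its count is a description.

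The members higher in inhibitory neurons were fewer. Kcnmb2, an inactivating beta subunit of the BK channel, was read at 13.4, 11.9, 16.8 and 11.5 CPM in excitatory and at 650, 637, 703 and 854 CPM in inhibitory neurons. This was the largest difference of the family, at −5.56 ± 0.13 on the log2 scale (excitatory minus inhibitory, adjusted p = 3.3e-09). Kcnip1 was read at 14.0, 15.2, 12.9 and 22.7 CPM in excitatory and at 520, 533, 480 and 549 CPM in inhibitory neurons (log2 difference −4.87 ± 0.11). Kcns3, a silent subunit known from fast-spiking cells, followed with −3.86 ± 0.14, Kcnc2 (Kv3.2) with −3.29 ± 0.10 and Kcnc1 (Kv3.1) with −2.24 ± 0.08. Of a list of 11 members known from fast-spiking cells and interneurons, 10 were higher in inhibitory neurons and 1, Kcnt2, in excitatory neurons (0.90 ± 0.10). This list, too, was chosen with earlier results of these data known. Of the 15 partner genes tested, 4 were higher and 6 lower in excitatory neurons.

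**Figure D4:**
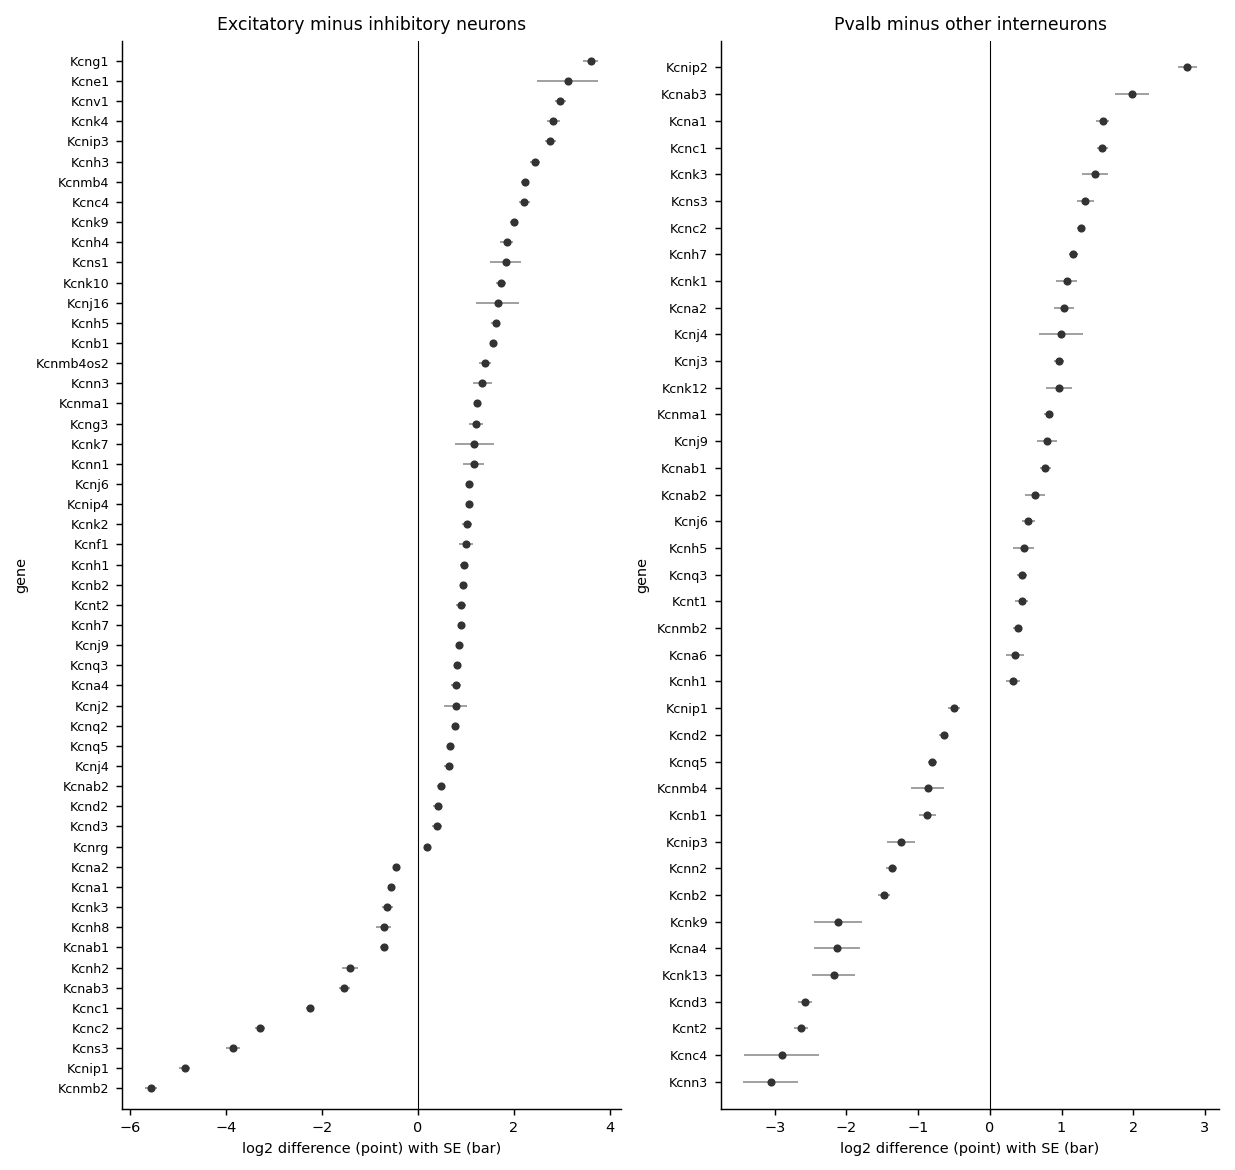
Log2 differences (points) with SE (bars) of 52 members called between excitatory and inhibitory neurons (left) and 39 called between Pvalb-marked and other interneurons (right), on 4 mice each. Kcng1 and Kcnmb2 stood at the ends on the left, at 3.60 and −5.56, and Kcnip2 and Kcnn3 on the right, at 2.76 and −3.05.

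Excitatory neurons were divided by layer markers into layer 2/3 (2512 nuclei), layer 4 (1330), layer 5 (1759), layer 6 corticothalamic (2928) and a Tshz2-marked group (550). Another 5294 excitatory nuclei passed no subtype gate, and 30 layer 6b and 10 granule-type nuclei were not described. The summed level of the family was 23926 CPM in layer 2/3, 23458 in layer 4, 22123 in Tshz2-marked neurons, 19869 in layer 5 and 13745 in layer 6 corticothalamic neurons. Without Kcnip4 the sum was 12449, 15044, 12843, 12522 and 10569 CPM in the same order of groups, so that layer 4 was highest. Levels across these groups are given as a description. Kcnip4 was read at 11934, 11205, 11052 and 11713 CPM in layer 2/3 and at 3257, 3322, 3143 and 2982 CPM in layer 6 corticothalamic neurons, with the other groups between. Kcnh5, an ether-à-go-go channel, was read at 398, 394, 531 and 477 CPM in layer 4, and in the other groups its mean was at most 168 CPM. Kcnip1, which was low in excitatory neurons as a class, was read at 157, 169, 199 and 238 CPM in Tshz2-marked neurons and at a mean of at most 13.9 CPM elsewhere. Kcnk13 was read at 45.3, 41.6, 19.5 and 39.7 CPM in layer 2/3, above its mean of 11.2 CPM in layer 5 and lower means in the rest. Kcnk3 (TASK-1) was read at 35.7, 20.7, 21.5 and 21.2 CPM in layer 6 corticothalamic neurons and at a mean of at most 10.2 CPM elsewhere.

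Among interneurons, Pvalb-marked nuclei (439) were compared with Sst-, Vip- and Lamp5-marked nuclei (477, 317 and 252) of the same mice. The 1483 inhibitory nuclei that passed no subtype gate and the 124 striatal-type spiny nuclei were left out here. Of 50 members tested, 25 were higher and 16 lower in Pvalb-marked nuclei, where 15.5% and 16% of all 11117 genes tested were. Of the 11 listed members known from fast-spiking cells and interneurons, 9 were higher and 2, Kcnt2 and Kcnip1, lower. The list is the one above, chosen with earlier results of these data known. Kcnc1 was read at 527, 525, 389 and 403 CPM in Pvalb-marked nuclei and between 120 and 202 CPM in every library of the other 3 types, with a log2 difference of 1.57 ± 0.07 (adjusted p = 4.5e-17). Kcnc2 was read at 2625, 2545, 2448 and 2986 CPM in Pvalb-marked nuclei, at 1465 to 1802 CPM in Sst-marked nuclei, and below that in Vip- and Lamp5-marked nuclei (log2 difference 1.27 ± 0.06). Kcna1, the Kv1.1 channel, was read at 178, 181, 177 and 166 CPM, against at most 88.6 CPM in any library of the other types (1.57 ± 0.09).

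The largest difference toward Pvalb-marked nuclei was in Kcnip2, a partner of Kcnd channels, at 126, 111, 109 and 102 CPM against at most 25.6 CPM in any library of the other types (log2 difference 2.76 ± 0.13, adjusted p = 5.4e-17). The Kv1 beta subunit Kcnab3 (1.99 ± 0.24), Kcnk3 (1.47 ± 0.18) and Kcns3 (1.33 ± 0.12) were higher too. On the other side stood Kcnn3 (−3.05 ± 0.38), Kcnc4 (−2.91 ± 0.52), Kcnt2 (−2.64 ± 0.10) and Kcnd3 (−2.58 ± 0.09). Kcnt2, a sodium-activated channel, was read at 1005, 846, 994 and 1041 CPM in Vip-marked nuclei and at 55.8, 58.6, 55.5 and 75.2 CPM in Pvalb-marked nuclei. Kcnd3, which encodes the A-type channel Kv4.3, was read at 73.1, 56.6, 60.2 and 65.5 CPM in Pvalb-marked nuclei and between 271 and 579 CPM in every library of the other types. Kcnd2, the other main A-type channel, was highest in Sst-marked nuclei, at 1644, 1788, 1978 and 1704 CPM.

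In excitatory neurons, 0 of 79 members and 0% of all 19509 genes tested were called between the ages, and in inhibitory neurons 0 of 66 members and 0% of 15239 genes. At an unadjusted p under 0.05 there were 12 and 2 members (15.2% and 3.03%), and 1327 and 636 genes (6.80% and 4.17%). DESeq2 called 1 member in excitatory and 0 in inhibitory neurons. Leaving out 3M-2 raised the number of calls in excitatory neurons, among members and among all genes. It left 1 mouse at 3 months, and so no spread between mice at that age. The lowest p in excitatory neurons was that of Kcnh4, at 24.4 and 20.4 CPM at 3 months and 11.4 and 12.0 CPM at 6 months (log2 difference −0.97 ± 0.20, adjusted p = 0.34). The ages did not overlap for Kcnip2 (55.8 and 56.3, then 31.7 and 39.7 CPM) or Kcnd3 (400 and 398, then 221 and 307 CPM) either, with adjusted p of 0.42 and 0.51. Of the 12 members at an unadjusted p under 0.05, Kcnt2, Kcng2 and Kcnj3 were higher at 6 months and the others lower. Kcnt2 was read at 303 and 315, then 483 and 395 CPM (log2 difference 0.48 ± 0.14, adjusted p = 0.55). The difference of Kcnd3 was −0.86 within batch 1 and −0.37 within batch 2. Layer 2/3 nuclei, gated as described above, made up 10.2%, 11.1%, 5.86% and 5.41% of the nuclei of their libraries. Among the excitatory groups Kcnh4 was highest there, at a mean of 35.7 CPM. Within layer 2/3 the log2 difference of Kcnh4 was −0.55 ± 0.24 (adjusted p = 0.82). It was below 0 in each excitatory group, from −1.73 in Tshz2-marked neurons to −0.40 in layer 5, and called in none. These groups come from the same mice. The part of the layer 2/3 share in the values of the class was not tested.

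Within the neuron types the result was the same count of 0. In layer 2/3, layer 4, layer 5 and layer 6 corticothalamic neurons 0 members and 0% of the genes tested were called, with 10, 7, 9 and 6 members (14.5%, 11.9%, 13.04% and 8.96%) and 6.09%, 6.75%, 5.70% and 4.17% of all genes at an unadjusted p under 0.05. In Tshz2-marked neurons 0 of 51 members were called against 0.00944% of all genes, and at an unadjusted p under 0.05 there were 12 members (23.5%) and 851 genes (8.03%). Kcnd3 came nearest, at 270 and 209 CPM at 3 months and 95.6 and 128 CPM at 6 months (log2 difference −1.07 ± 0.20, adjusted p = 0.088). In Pvalb-, Sst-, Vip- and Lamp5-marked nuclei 0 members were called against 0.0101%, 0%, 0.0675% and 0% of all genes. Over the 5 excitatory groups, which come from the same 4 mice, the log2 difference of Kcnd3 ran from −1.07 to −0.44.

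Levels in the other glia are given as a description. In oligodendrocytes, Kcna1 was read at 529, 421, 643 and 545 CPM. Kcnab1 was read there at 448, 565, 1052 and 777 CPM, which overlapped with inhibitory neurons (519 ± 21.4 CPM, SD, n = 4). In OPCs, Kcnh8, another ether-à-go-go-like channel, was read at 299, 283, 344 and 386 CPM, and in astrocytes and oligodendrocytes it was at most 6.06 CPM in any library. Kcnd2 was read at 3007, 3442, 3756 and 3594 CPM in OPCs. In the 168 astrocytes, Kcnn2 (SK2) was read at 868, 800, 829 and 920 CPM, and Kcnj10, the defining inward rectifier of astrocytes, at 47.9, 109, 109 and 93.3 CPM, which overlapped with oligodendrocytes. Kcnj16, its partner Kir5.1, was read at 18.0, 36.4, 65.5 and 86.6 CPM in astrocytes on 28 UMIs. This overlapped with OPCs, where the mean of Kcnj16 was 55.8 ± 11.7 CPM, against 51.6 ± 30.5 CPM in astrocytes (SD, n = 4). In the 78 vascular nuclei, Kcnj8, the pore Kir6.1 of the ATP-sensitive channel of pericytes, was read at 208, 600, 523 and 213 CPM on 46 UMIs.

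Among the glial classes, 1 member was called with age. Kcnip3 in OPCs was read at 368 and 337 CPM at 3 months and at 735 and 606 CPM at 6 months. The ages did not overlap, and the log2 difference was 0.95 ± 0.17 (adjusted p = 0.021), with 1.00 within batch 1 and 0.85 within batch 2. Of 37 members tested in OPCs it was the 1 called, against 0.0907% of all 8824 genes. The UMIs came from 147 of 217, 89 of 168, 135 of 169 and 106 of 132 nuclei. The call was lost without 6M-1 (adjusted p = 0.69), with DESeq2 (0.059) and with a stricter gate (0.075). Kcnip3 in excitatory neurons was read at 253, 233, 188 and 239 CPM, with overlap between the ages.

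In oligodendrocytes 0 of 46 members were called against 0.107% of all 12130 genes, with 7 members (15.2%) and 923 genes (7.61%) at an unadjusted p under 0.05 and 0 members called by DESeq2. The median log2 difference over the members was 0.32, against −0.001 over all genes, and 34 of the 46 were above 0. The summed level of the family was 3463 and 3508 CPM at 3 months and 4812 and 4435 CPM at 6 months, without overlap (exact permutation test, 2-sided p = 0.333, the smallest that 2 mice against 2 allow). The sum of the neuronal genes outside the gates was 451, 593, 616 and 726 CPM in the same nuclei, and its part in this was not tested. Kcnab1 was read at 448 and 565, then at 1052 and 777 CPM, and was not called (log2 difference 0.78 ± 0.20, adjusted p = 0.29). In astrocytes 0 of 19 members were called against 0% of 3303 genes, with 1 member (Kcnq3, 5.26%) and 133 genes (4.03%) at an unadjusted p under 0.05 and 0 members called by DESeq2.

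**Figure D5:**
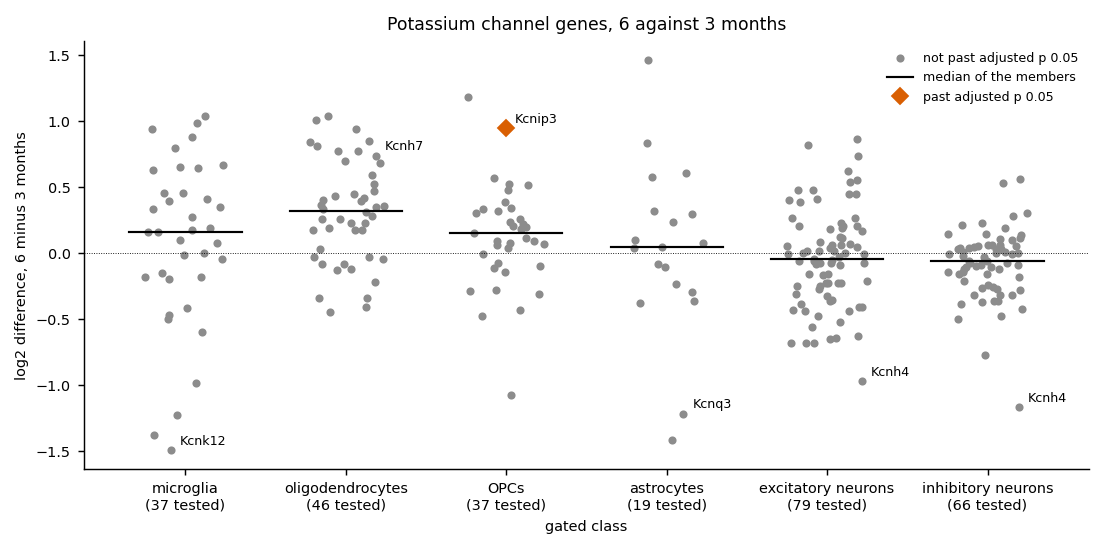
Log2 difference of 6 minus 3 months for each member tested in 6 gated classes, on 2 mice against 2, with 1 point per member and bars at the median of the members. Kcnip3 in OPCs (0.95) was the 1 member past an adjusted p of 0.05, and the median was highest in oligodendrocytes, at 0.32.

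Whether the difference between the ages was itself different between cell classes was tested as an interaction, with the mouse as a block. Between excitatory and inhibitory neurons it was called for 0 of 82 members, against 0.00521% of all genes, with 10 members (12.2%) and 976 genes (5.08%) at an unadjusted p under 0.05. Between microglia and excitatory neurons it was called for 3 of 79 members, against 1.35% of all genes. These were Kcnk12 (log2 difference of −1.57 ± 0.33 in microglia beyond that in excitatory neurons, adjusted p = 0.00036), Kcnd2 (−1.39 ± 0.24, adjusted p = 3.9e-06) and Kcnk13 (0.73 ± 0.19, adjusted p = 0.016). In none of the 3 genes was the age difference called within microglia or within excitatory neurons alone. Kcnk12 was read at 21.1, 21.7, 21.2 and 24.1 CPM in excitatory neurons, where the ages overlapped. In microglia they did not, as given above. The call of Kcnk12 was lost without 6M-1 (adjusted p = 0.085) and without the block (0.14). The value for Kcnd2 rests on 3M-2: microglia were read at 121, 379, 102 and 104 CPM, and 5 nuclei of 3M-2 held 118 of its 205 UMIs. Without 3M-2 the interaction was −0.48 (adjusted p = 0.62). For Kcnk13 the call was lost in every alternative, with adjusted p from 0.060 to 0.69. Among the excitatory groups Kcnk13 was highest in layer 2/3, which held a smaller share of nuclei at 6 months. The part of that share in the interaction was not tested.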

How the data were processed

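Cortical nuclei of 4 GCLC-KO mice were sorted and read with the 10x Genomics 3′ v3.1 kit. The authors deposited raw UMI counts per gene and nucleus, made with Cell Ranger 7.0.0 per the file headers, without normalization. The build is mm10 in the submitters' processing notes, and the annotation and strand setting are not given in the sources used here.

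The authors' limits on genes and mitochondrial UMIs were applied. A nucleus was gated when the UMIs of its class's markers reached a set number per 10000 with a set number of different markers. These were 60 and 5 for microglia, and 20 and 2 for DAM markers within microglia. Excitatory neurons took 4 and 3, and inhibitory neurons 3 and 2. A nucleus was left out when another class's markers reached a share of 0.5 of that class's gate with 2 different markers. For excitatory markers the whole of the gate had to be reached. These numbers were set after the marker distributions had been seen. Doublets were treated by leaving out such mixed nuclei. Microglia with 10 or more macrophage marker UMIs per 10000 from at least 2 different markers were left out. Those with at least 2 different T cell markers were left out too. Classes were rebuilt from markers and may differ from those of the study. UMIs were summed per library and class where each library held at least 10 nuclei, and tested with edgeR 4.0.16 in R 4.3.3 (TMM, filterByExpr, quasi-likelihood, Benjamini-Hochberg over all genes). DESeq2 1.42.0 was an alternative. SE is the log2 difference divided by the root of F. The code was tested on simulated data. Floors cover counting error only. The p-values of the age tests set the difference against the spread between mice of the same age, with variance estimates that borrow from all genes. In tests with the mouse as a block they set the difference against its variation over the mice, with the same borrowing from all genes. A gene's own spread between mice can thus weigh little, as for Kcnd2 in the interaction, with 121 and 379 CPM in microglia at 3 months.

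The batch numbers 1 and 2 are the same as the replicate numbers in the sample titles, which name no batch. Values within a batch pair a younger with an older mouse by this number alone. Over genes, the difference between replicates at 3 months correlated with that at 6 months at r = 0.019 in microglia, −0.131 in excitatory and −0.007 in inhibitory neurons. Replicates differed by more than sampling noise (chi-square per degree of freedom 67.0 and 23.4).

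The members, gene lists and gates were chosen with earlier results of these data known. Named were members past an adjusted p of 0.05 (up to 15 per direction), lists for microglia, fast-spiking cells, glia and excitatory neurons, and members singled out by smallest p or highest level, chosen after their values were seen. Alternatives were RLE scaling, DESeq2, no filter on low counts, a gate 1.5 times stricter, the batch or mouse block, and leaving out each library. Values of 2 members are not reported by name here, while counts of members include them.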

Additional observations from a re-analysis of the deposited data

Results flagged for a closer look

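The difference between the ages differed between microglia and excitatory neurons for 3 members by a test of the interaction (edgeR quasi-likelihood, adjusted over all genes). For Kcnd2 the interaction was −1.39 on the log2 scale, with age differences of −1.22 in microglia and 0.23 in excitatory neurons, and it was lost without 3M-2 and without the mouse as a block. For Kcnk12 it was −1.57, with −1.49 in microglia and 0.05 in excitatory neurons, and its adjusted p was from 0.0052 to 0.14 over the alternatives. For Kcnk13 it was 0.73, with 0.07 in microglia and −0.68 in excitatory neurons, and it was lost in every alternative.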

How the results depend on the processing

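Counts below are of members called, for age with the genes called in the same setting in brackets. With age, edgeR called 0 of 37 in microglia (27 of 10787 genes). Without a filter on low counts it called 2 of 78 (127 of 19786), and with the stricter gate 1 of 37 (37 of 10637). Without DAM-marker-positive nuclei it called 1 of 32 (69 of 9799). In excitatory neurons it called 0 of 79 (0 of 19509), and DESeq2 1 of 79 (89 of 19509). In oligodendrocytes it called 0 of 46 (13 of 12130), against 1 of 83 without a filter (155 of 21076). In OPCs it called 1 of 37 (8 of 8824), against 0 by DESeq2 (0 of 8824) and 0 with the stricter gate (1 of 8621). In inhibitory neurons and astrocytes 0 were called in every setting that kept all libraries. Leaving out a library leaves 1 mouse at 1 age, so age counts from it are not given. Among such fits, most members were called without 3M-1 in microglia. In excitatory neurons, oligodendrocytes, OPCs, layer 5 and Tshz2-marked neurons it was without 3M-2.

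In neuron types 0 members were called. Without a filter on low counts it was 1 in layer 2/3, 3 in layer 4, 3 in layer 5 and 3 in Tshz2-marked neurons, and in the last also 1 by DESeq2 and 1 with the stricter gate. Leaving out a library gave 0 to 2 in layer 2/3, 0 to 3 in layer 4, 0 to 5 in layer 5, 0 to 6 in Tshz2-marked and 0 to 3 in layer 6 corticothalamic neurons, 0 to 1 in Sst- and 0 to 2 in Lamp5-marked nuclei. The batch number as a replicate block left the count of members called at 0 in microglia, excitatory and inhibitory neurons and at 1 in OPCs. It changed no other count of members. Crossing the batch numbers, chosen after seeing the data, gave 1 member and 111 genes in excitatory neurons.

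Between types, 71 members were called in microglia against all other nuclei and 65 to 68 when a library was left out, 18 and 17 to 20 against oligodendrocytes, 54 and 50 to 55 between excitatory and inhibitory neurons, and 41 and 38 to 41 in Pvalb-marked nuclei. For DAM-marker-positive nuclei it was 5, against 3 by DESeq2, 3 without the replicate block and 3 to 4 when a library was left out. The interaction of excitatory against inhibitory neurons went from 0 to a range of 0 to 10 when a library was left out, and that of microglia against excitatory neurons from 3 to a range of 1 to 4, and to 0 without the replicate block. The 193 calls of members in the main tests, of which 1 was with age and 3 were interactions, had 1779 values under an alternative. Of these values, 1684 kept their direction and side of the threshold, 94 lost the call, and 1 reversed. The last was Kcnrg, from 0.19 to −0.027 between excitatory and inhibitory neurons when only the 4 interneuron types were taken, an alternative chosen after seeing the data. Members that gained a call under an alternative, and calls that could not be tested under it, are not among these values. Over all genes and with all libraries kept, age calls in microglia ranged from 15 to 127 against 27. In oligodendrocytes they ranged from 13 to 155 against 13, and in OPCs from 0 to 25 against 8. In excitatory neurons they ranged from 0 to 111 and in inhibitory neurons from 0 to 69, both against 0. In each of these classes the most genes were called without 3M-2, which leaves 1 mouse at 3 months. DESeq2 called 372 genes against 837 in DAM-marker-positive nuclei and 2000 against 3505 in Pvalb-marked nuclei, and without the replicate block 408 against 837 and, between excitatory and inhibitory neurons, 6232 against 9373. In the neuron types age calls with all libraries kept ranged from 0 to 157 genes, against 0 to 5, and in astrocytes from 0 to 4, against 0. The interaction calls ranged from 0 to 402 genes against 1, and from 11 to 263 against 260. The cause of these differences was not tested. Depth is low for the 19 of 96 members with under 100 UMIs.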
